A study of Mus musculus with 12 samples.

Results

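The comparison described here set splenic dendritic cells (DCs) of mice without the microRNA miR-142 (KO) against those of wild-type (WT) littermates, with no stimulation of the cells. It used 6 of the 12 arrays of the series, 3 KO and 3 WT, taken by their titles and their label of no stimulation. The other 6 arrays hold KO and WT cells given lipopolysaccharide (LPS), and they enter below only as the same genotype comparison in a further set of arrays. All mice were male, on the C57BL/6 background and 10 weeks old, and KO and WT mice were matched for age and sex. DCs were taken from single spleens by positive selection, and RNA was amplified and hybridised to Affymetrix arrays. The descriptions of the samples speak of T cells, but their titles and cell type labels speak of DCs. The KO is labelled only by its genotype, and the labels give neither the extent of the deletion, nor the cells that carry it, nor the dose and time of LPS. All 17097 genes with a probe set of their own were tested, and each value is the log2 expression value deposited for the gene's brightest probe set.

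MicroRNAs guide a silencing complex to messenger RNAs that pair with their seed, the stretch near the 5′ end, and lower the stability and translation of those messages. The miR-142 hairpin is a marker of blood cells and gives a mature strand from each arm. In mouse DCs the strands have been linked to cytokine output, to the balance of DC subsets and to the actin cytoskeleton. The mature strands of miR-142 follow as RefSeq gives them, with the seed in capitals, because the seed decides which messages each strand can pair with.
mmu-miR-142a-5p: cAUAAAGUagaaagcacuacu
mmu-miR-142a-3p: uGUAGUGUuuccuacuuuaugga
The 5p strand lies at chr11:87756867-87756887 and the 3p strand at chr11:87756903-87756925 of GRCm38.p6, both on the plus strand. The hairpin of 64 bases that holds both is shown next, with the mature strands in capitals.
miR-142 hairpin: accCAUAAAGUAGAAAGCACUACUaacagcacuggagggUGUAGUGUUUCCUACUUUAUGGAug
The seeds differ from each other, and each was held by 1 of the 1738 mature mouse miRNAs of the reference table. No probe set that names a single gene measured miR-142 itself, so these arrays give no check of the knockout at its own locus.

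The cells carried the defining genes of DCs in both genotypes. Over 15 such genes the mean log2 value was 6.97, 7.08 and 7.14 in WT replicates 1, 2 and 3 and 7.05, 6.94 and 7.13 in KO replicates 1, 2 and 3, against a median of 3.14 over all genes. Itgax, which encodes CD11c, read 7.03, 7.15 and 7.47 in WT and 7.42, 7.55 and 7.59 in KO. The T cell list of 15 genes had mean values between 3.37 and 3.74 in the 6 arrays. None of the 15 DC genes was called in either direction, where 0.252% of all genes were, and their median KO minus WT difference was -0.04. Platelet genes gave 0 calls among 9 and a median difference of 0.59, with list medians of 0.84, 0.32 and 0.26 above the WT mean in KO replicates 1, 2 and 3 and of -0.10, 0.05 and 0.02 in WT. Erythroid genes gave 0 calls among 10 and a median difference of 0.51, with list medians of 0.43, 0.91 and 0.14 in KO that overlapped those of WT, 0.52, 0.03 and -0.54. Lists for neutrophils, NK cells, T cells, B cells, plasma cells, monocytes and red pulp macrophages are given below. Array medians ran from 2.65 to 2.72. The 3′ probe set of the spiked bioB control read 8.68 to 9.05 in WT and 7.89 to 8.43 in KO, without overlap. The 3′ minus middle gap of Gapdh, a sign of RNA integrity, was 1.60 to 1.86 in WT and 1.57 to 1.71 in KO. The part of these gaps in the results was not tested. KO LPS replicate 2 stood apart with a gap of 3.04, against 1.53 to 1.86 in the other 11 arrays, and its correlation with other arrays never passed 0.958. It is in neither unstimulated group but enters the model's estimate of spread and the KO group after LPS.

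Genes of neutrophil granules and of natural killer (NK) cells were higher in KO, as were the lipid enzymes Acsl3 and Scd1, and the plasma cell gene Jchain, Mmp12 and the chemokines Cxcl10 and Ccl4 were lower. Of 17097 genes, 43 were called, that is, had a limma p under 0.05 after Benjamini-Hochberg adjustment over all genes. This was 0.252% of the genes. For the gene lists above and below, 0 calls is near that share and is no sign that a list is unchanged. In KO, 35 were higher (0.205%) and 8 were lower (0.0468%). At an unadjusted limma p under 0.05 there were 1493 of the 17097 genes, 870 higher and 623 lower. Such counts for gene lists can be read against these. The sizes of the called differences ran from 0.57 to 5.72 on the log2 scale. The difference was over 2-fold for 30 of them and over 8-fold for 8. The 3 KO values lay outside the range of the 3 WT values for all 43 called genes, as they did for 8.99% of all genes upward and 7.87% downward. The median difference over all genes was -0.001, against which the medians of gene lists can be read. Without KO LPS replicate 2 the count rose to 166 (0.971%), and from the 6 unstimulated arrays alone it was 84. Leaving out WT replicate 1, 2 or 3 left 16, 9 or 5 genes called, leaving out KO replicate 1 or 2 left 8 each, and without KO replicate 3 there were 78.

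**Figure D1:**
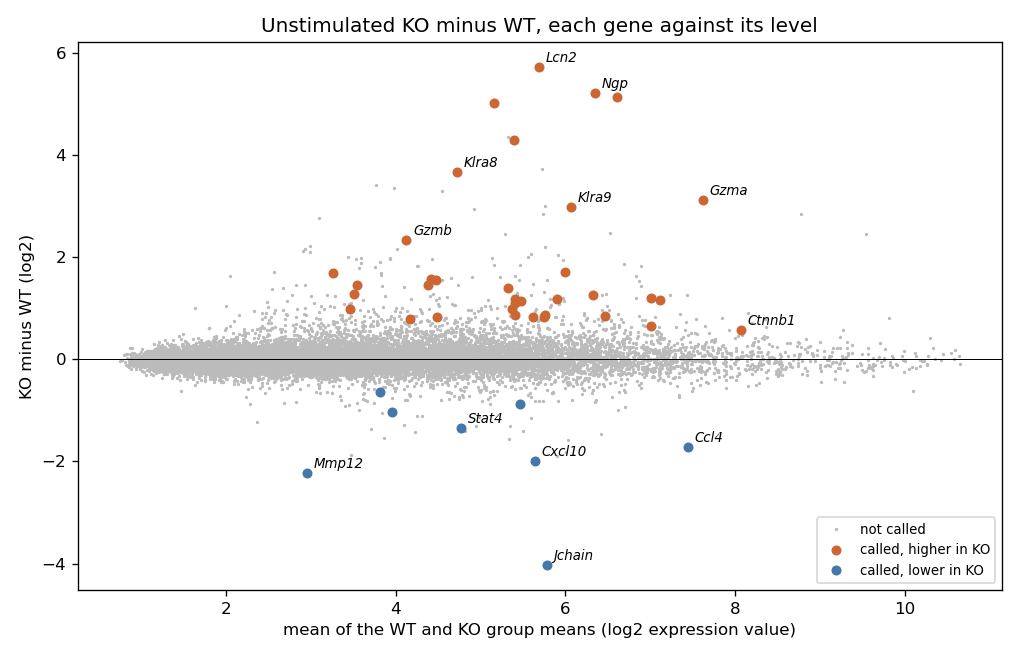
Each of the 17097 genes is a point, with the mean of its WT and KO group means on the horizontal axis and its KO minus WT difference on the vertical axis, both as log2 values. The 35 called rises reach 5.72 for Lcn2, and the 8 called falls reach -4.03 for Jchain.

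The highest rises were in granule proteins of neutrophils. Lcn2 encodes lipocalin 2, which binds the iron carriers of bacteria, and read 3.24, 3.33 and 1.93 in WT replicates 1, 2 and 3 and 9.33, 9.61 and 6.72 in those of KO. The groups were 3.39 apart at their nearest values, and KO replicate 3 was the lowest KO array, as WT replicate 3 was the lowest WT array. The KO minus WT difference of Lcn2 was 5.72 ± 0.82 (SE, 3 arrays a group; limma adjusted p = 0.0195), or 52.7-fold.
Ngp, a neutrophil granule protein of the cystatin family, read 4.54, 3.79 and 2.90 in WT and 9.65, 9.97 and 7.24 in KO. Its difference was 5.21 ± 0.75 (limma adjusted p = 0.0195). Camp encodes cathelicidin, an antimicrobial peptide stored in secondary granules, and read 4.68, 4.38 and 3.04 in WT and 9.83, 10.2 and 7.54 in KO. Camp differed by 5.15 ± 0.76 (limma adjusted p = 0.0195). Both genes repeated the pattern of Lcn2, with KO replicates 1 and 2 close together and KO replicate 3 above every WT array but below the other KO arrays.

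The promoters of these genes are shown because the genes moved together, with Cxcl10, a gene that fell, for contrast. Each run holds 250 bases before the RefSeq start site and 50 from it on, in GRCm38.p6 and in the direction of the gene. Capitals mark matches to TTGCNNAA, a form of the C/EBP motif, in the granule genes, to GAAANNGAA, a form of the IRF motif, in Cxcl10, and to GGNNTTTCC, a form of the NF-kB motif, in all of them, searched on both strands with overlaps counted.
Lcn2, chr2:32387690-32387989, minus strand: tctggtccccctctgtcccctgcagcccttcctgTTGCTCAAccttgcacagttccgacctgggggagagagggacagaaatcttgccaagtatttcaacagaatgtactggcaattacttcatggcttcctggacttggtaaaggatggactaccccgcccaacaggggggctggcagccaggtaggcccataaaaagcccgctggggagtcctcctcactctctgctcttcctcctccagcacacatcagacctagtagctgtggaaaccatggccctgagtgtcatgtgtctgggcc
Ngp, chr9:110419558-110419857, plus strand: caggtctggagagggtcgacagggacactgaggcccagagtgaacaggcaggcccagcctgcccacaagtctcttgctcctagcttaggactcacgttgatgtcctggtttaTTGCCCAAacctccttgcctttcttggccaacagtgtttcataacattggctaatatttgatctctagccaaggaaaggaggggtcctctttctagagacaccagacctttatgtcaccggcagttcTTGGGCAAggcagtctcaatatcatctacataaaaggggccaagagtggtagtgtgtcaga
Camp, chr9:109849407-109849706, minus strand: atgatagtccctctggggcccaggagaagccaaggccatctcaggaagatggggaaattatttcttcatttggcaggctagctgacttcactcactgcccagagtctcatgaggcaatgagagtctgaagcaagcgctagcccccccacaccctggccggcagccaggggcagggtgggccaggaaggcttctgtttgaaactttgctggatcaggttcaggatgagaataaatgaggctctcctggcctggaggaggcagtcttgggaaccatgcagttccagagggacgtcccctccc
Cxcl10, chr5:92348840-92349139, minus strand: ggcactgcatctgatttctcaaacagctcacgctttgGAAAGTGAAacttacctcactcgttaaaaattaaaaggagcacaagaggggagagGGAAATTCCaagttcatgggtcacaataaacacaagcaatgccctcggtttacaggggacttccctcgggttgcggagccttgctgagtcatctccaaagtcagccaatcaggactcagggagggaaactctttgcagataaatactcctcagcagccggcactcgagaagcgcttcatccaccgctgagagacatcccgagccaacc
Lcn2 held 1 match to the C/EBP form, Ngp held 2, and no match to these letters lies in the window of Camp. The C/EBP form was in 10.8% of the 32851 promoters of the table. Of the 26 called rises that had an entry, 8 (30.8%) held it in at least 1 promoter. Of the other letters searched in these 26 genes, AGGAAG, a form of the ETS motif, was in 42.3%, beside 35.4% of all promoters. TATAAA was in 26.9%, beside 13.6%. The IRF form was in 11.5% and the NF-kB form in 3.85%. Shares of all promoters count promoters and shares of the called rises count genes, so they are not like for like. For the called falls the table held 5 of 8 genes, of which 2 had the C/EBP form. Cxcl10 held 1 match each to the IRF form, found in 8.56% of all promoters, and to the NF-kB form, found in 5.82%. These matches describe the letters and are no sign of binding. Camp and Ngp lie 570.4 kb apart on chromosome 9, and Lcn2 is on chromosome 2.

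Among 14 genes of secondary and tertiary granules 4 were called, all higher, and the median difference was 3.38. Lcn2, Ngp, Camp and Chil3 were the 4. Members that were not called had large differences and a wide spread among the KO arrays. Ltf, which encodes the iron-binding lactoferrin, read 4.19, 3.82 and 3.57 in WT and 8.45, 9.03 and 5.29 in KO (difference 3.73 ± 0.82, limma adjusted p = 0.118). Mmp8, the neutrophil collagenase, read 2.19, 2.23 and 1.78 in WT and 6.85, 6.52 and 3.05 in KO (3.40 ± 0.99, limma adjusted p = 0.262). In each the 3 KO arrays were above the 3 WT arrays, and KO replicate 3 was nearer to WT than to the other KO arrays.
Over the whole list, the median distance from the WT mean was 4.48, 4.64 and 0.92 in KO replicates 1, 2 and 3, and 0.07, 0.17 and -0.30 in WT. Mature neutrophil genes gave 0 calls among 16, a median difference of 1.94, and KO medians of 2.51, 2.77 and 0.51. S100a8, part of the calcium-binding protein calprotectin, read 8.21, 8.07 and 5.77 in WT and 10.7, 10.6 and 9.34 in KO (2.85 ± 0.82, limma adjusted p = 0.253). Primary granule genes gave 0 calls among 9, a median difference of 0.82 and KO medians of 0.77, 1.65 and 0.13. Primary granule genes, made in granulocyte precursors, had the lowest median of the 3 lists in each KO array. Elane, neutrophil elastase, read 2.37, 1.98 and 2.44 in WT and 3.03, 3.42 and 2.26 in KO, with overlap (limma adjusted p = 0.474). In samples of many cells, a different number of cells of a type and a different amount of RNA per cell cannot be told apart, here and for the NK and plasma cell genes below. The part of neutrophil RNA in the other differences was not tested.

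**Figure D2:**
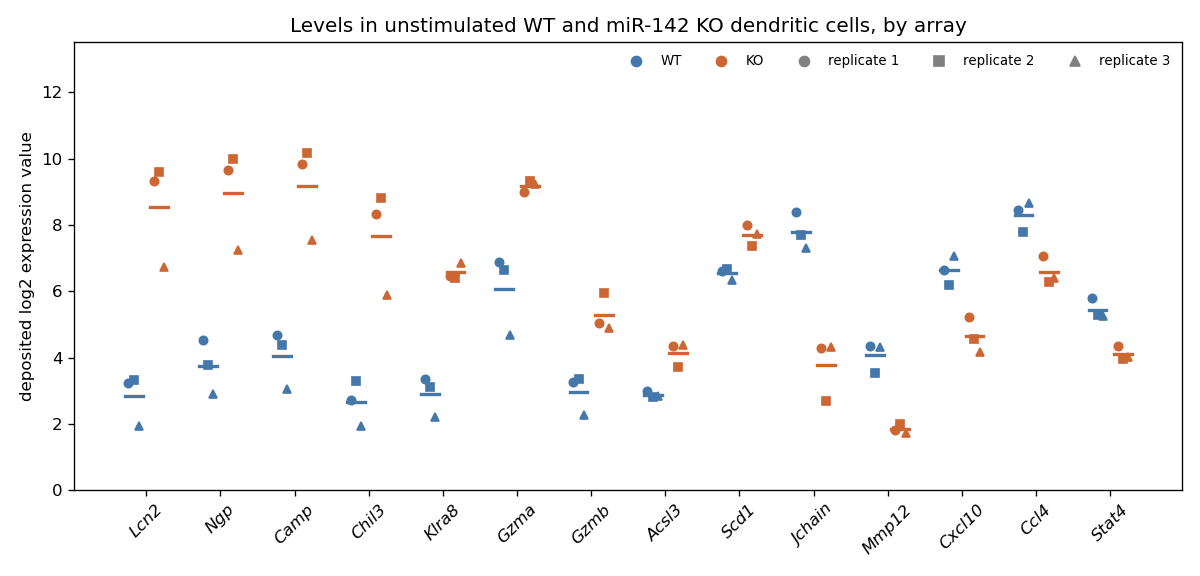
Deposited log2 expression values of 14 called genes are shown in each unstimulated array, with WT in blue, KO in orange, 1 symbol per replicate number and bars at the group means. KO replicate 3 lies between WT and the other KO arrays for Lcn2, Ngp, Camp and Chil3, but level with them for Gzma and Mmp12 and highest for Klra8.

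Chil3 and Chil4 encode chitinase-like lectins (Ym1 and Ym2) of neutrophils and of alternatively activated macrophages, and their genes lie 33.9 kb apart on chromosome 3. Chil3 read 2.71, 3.30 and 1.94 in WT and 8.32, 8.80 and 5.88 in KO, a difference of 5.01 ± 0.77 (limma adjusted p = 0.0237). The called probe set of Chil4 is of the kind whose probes other transcripts share, and it read 3.29, 3.49 and 2.97 in WT and 8.04, 8.85 and 5.72 in KO. That gave 4.29 ± 0.69 (limma adjusted p = 0.0248). The other probe set of Chil4 read 1.84, 1.91 and 1.99 in WT and 2.07, 2.41 and 1.95 in KO. There the groups overlapped and the difference was 0.23 ± 0.15 (limma adjusted p = 0.767 over all probe sets with 1 symbol), so the value under the name Chil4 is uncertain.

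Of the genes of NK cells, 4 receptors and 3 effector proteins rose, while most members of the lists were not called. Klra8 encodes Ly49H, the activating receptor for a protein of mouse cytomegalovirus, and read 3.34, 3.10 and 2.22 in WT and 6.44, 6.40 and 6.86 in KO. The difference was 3.68 ± 0.36 (limma adjusted p = 0.0021), 12.8-fold. Klra9, an inhibitory receptor of the same family 48.7 kb away on chromosome 6, read 4.92, 4.67 and 4.16 in WT and 7.58, 7.64 and 7.47 in KO. It differed by 2.98 ± 0.26 (limma adjusted p = 0.00087). The KO arrays of Klra9 lay closer together than its WT arrays. Both are measured by probe sets of the kind whose probes can match other genes, so the signal of related Ly49 genes may be mixed in them. Of 8 Ly49 genes 2 were called and the median difference was 0.51. Klra7 read 2.70, 1.94 and 1.98 in WT and 3.25, 4.29 and 3.46 in KO (1.46 ± 0.41, limma adjusted p = 0.232), while Klra16 differed by -0.01 ± 0.20.

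Of 16 cytotoxic effector genes, Gzma, Gzmb and Ctsw were called. Gzma, granzyme A, read 6.87, 6.64 and 4.67 in WT and 8.98, 9.31 and 9.24 in KO. It differed by 3.12 ± 0.56 (limma adjusted p = 0.0448). WT replicate 3 was well below the other WT arrays, and the KO arrays lay close together. Gzmb, granzyme B, read 3.25, 3.36 and 2.27 in WT and 5.03, 5.96 and 4.90 in KO (2.34 ± 0.32, limma adjusted p = 0.0173). Ctsw, a cathepsin of cytotoxic lymphocytes, rose by 1.58 ± 0.26 (limma adjusted p = 0.0248), and Cst7, cystatin F, an inhibitor of the proteases that activate granzymes, rose by 0.98 ± 0.13 (limma adjusted p = 0.016). Nkg7 read 4.32, 4.66 and 3.46 in WT and 5.67, 6.53 and 6.17 in KO but was not called (1.98 ± 0.44, limma adjusted p = 0.119), and Ifng, interferon gamma, differed by -0.04 ± 0.17.
Among 17 other NK receptor genes Klrg1 and Klrb1b were called, with a list median of 0.50. Klrg1, an inhibitory receptor of mature NK and T cells, read 4.05, 3.47 and 3.46 in WT and 4.70, 5.52 and 5.10 in KO (1.45 ± 0.23, limma adjusted p = 0.0248). Klrb1b, a lectin-like NK receptor, rose by 0.98 ± 0.15 (limma adjusted p = 0.0245), and its 5 probe sets gave 0.98 to 1.73. Ncr1, the receptor NKp46 that defines NK cells, read 2.10, 2.13 and 2.08 in WT and 2.57, 3.24 and 2.46 in KO, without overlap but not called (0.65 ± 0.19, limma adjusted p = 0.259). The list of NK transcription factors had 0 calls among 8 genes, and the T cell list 0 among 15 with a median of 0.00.

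**Figure D3:**
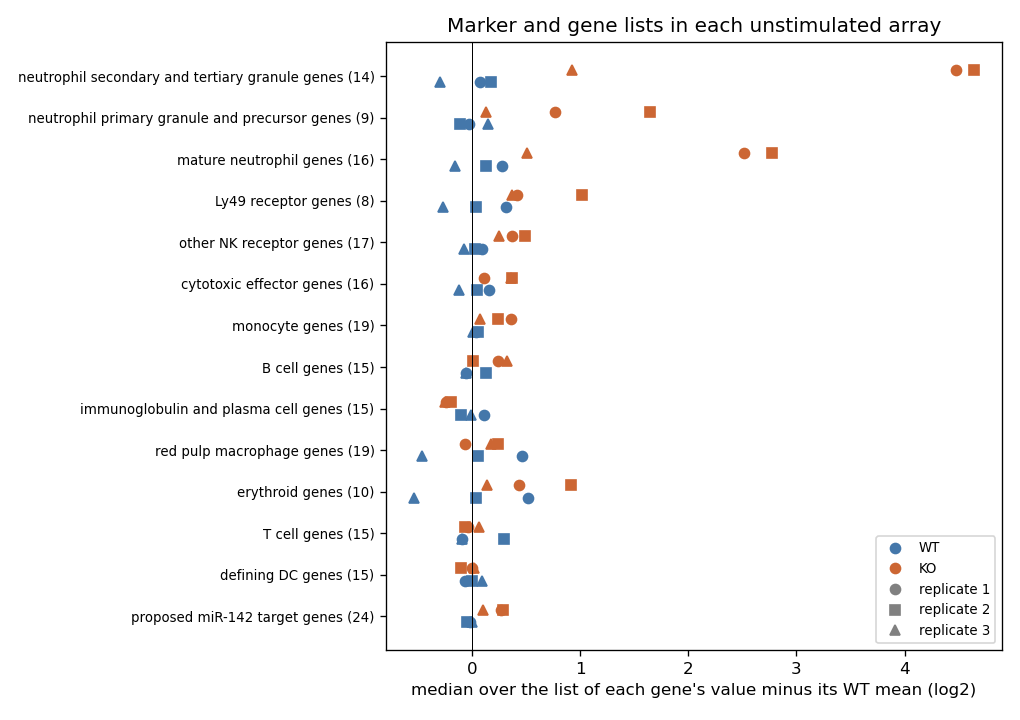
For 14 lists, with the number of measured genes in brackets, each symbol is the median over the list of a gene's log2 value minus its WT mean in 1 unstimulated array (WT blue, KO orange). The granule and mature neutrophil lists stand at 4.48, 4.64 and 0.92 and at 2.51, 2.77 and 0.51 in KO, while the defining DC list lies between -0.10 and 0.09 in the 6 arrays.

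Further rises were in Gfi1, Ly6c1, Dstn, Il18bp, Id3 and Tnfrsf13c, which belong to no granule or NK list. Gfi1, a zinc finger repressor needed to form neutrophils, read 3.33, 3.999 and 3.76 in WT and 5.07, 4.92 and 5.79 in KO. Its difference was 1.56 ± 0.25 (limma adjusted p = 0.0248), and KO replicate 3, which had the lowest granule genes of KO, had the highest Gfi1. Ly6c1, an antigen of monocytes, endothelium and some lymphocytes, read 5.68, 5.69 and 5.69 in WT and 6.996, 7.23 and 6.63 in KO (1.27 ± 0.22, limma adjusted p = 0.0372). Of 19 monocyte genes Ly6c1 and Chil3 were called, and the list median was 0.15. At an unadjusted limma p under 0.05, 8 of the 19 were higher and 0 lower, beside 870 higher and 623 lower of all 17097 genes. Dstn, destrin, which severs actin filaments, read 5.13, 5.04 and 5.23 in WT and 7.13, 7.31 and 6.11 in KO (1.72 ± 0.31, limma adjusted p = 0.0463). Il18bp, a soluble decoy that holds back the cytokine Il18, rose by 1.41 ± 0.25 (limma adjusted p = 0.0452). Id3, which blocks the DNA binding of E proteins, rose by 0.87 ± 0.15 (limma adjusted p = 0.038). Tnfrsf13c, the BAFF receptor of B cells, rose by 0.86 ± 0.14 (limma adjusted p = 0.0248) while the B cell list had 0 calls among 15 and a median of 0.20.

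Among genes of lipid handling, Acsl3, Scd1, Pltp and Tmem86a rose. Acsl3 and Scd1 had their lowest KO value in replicate 2, at 0.84 and 0.83 above the WT mean. Pltp and Tmem86a had theirs in replicate 3, at 0.95 and 0.92 above it. The part of neutrophil RNA in these rises was not tested. Acsl3 attaches coenzyme A to long-chain fatty acids and read 2.98, 2.80 and 2.85 in WT and 4.35, 3.72 and 4.39 in KO. It rose by 1.27 ± 0.17 (limma adjusted p = 0.016). Its other probe sets gave 0.32 ± 0.16 and 0.49 ± 0.24 (limma adjusted p = 0.642 and 0.625 over probe sets). The groups overlapped in both, so the size of the Acsl3 rise is uncertain. Acsl3 was the 1 called member of 9 acyl-CoA synthetase and transporter genes, whose median was 0.08, and its relative Acsl5 differed by 0.08 ± 0.17. Scd1 makes monounsaturated fatty acids and read 6.60, 6.67 and 6.33 in WT and 8.01, 7.37 and 7.72 in KO (1.16 ± 0.18, limma adjusted p = 0.0224). The second probe set of Scd1 gave 1.21 ± 0.23 (limma adjusted p = 0.0745 over probe sets). Of 18 genes of fatty acid and cholesterol synthesis Scd1 alone was called, the list median was -0.13, and Fasn, fatty acid synthase, differed by 0.00 ± 0.17. Pltp, which moves phospholipids between lipoproteins, read 5.01, 4.83 and 4.71 in WT and 5.93, 6.15 and 5.80 in KO (1.11 ± 0.15, limma adjusted p = 0.016). Tmem86a, an enzyme that breaks down lysoplasmalogens, rose by 1.18 ± 0.20 (limma adjusted p = 0.0333). Cpt1a, the entry enzyme of fatty acid oxidation, read 3.91, 3.79 and 3.94 in WT and 3.92, 4.73 and 3.90 in KO, with overlap (0.30 ± 0.25, limma adjusted p = 0.813), and the 18 genes of fatty acid oxidation gave 0 calls.

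The remaining rises ran from 0.57 to 1.69 on the log2 scale. Pmp22, a membrane protein of myelin and other tissues, was the largest with 2.95, 1.85 and 2.46 in WT and 3.94, 3.81 and 4.57 in KO (1.69 ± 0.29, limma adjusted p = 0.0372). Cemip2, a cell surface hyaluronidase, rose by 1.45 ± 0.24 (limma adjusted p = 0.0266). Cd151, a tetraspanin that binds integrins, read 4.78, 5.02 and 4.92 in WT and 5.99, 6.11 and 6.05 in KO (1.15 ± 0.17, limma adjusted p = 0.0195). The KO values of Cd151 were nearly level, but its probe set is of the kind whose probes can match other genes. The other sets of Cd151 gave 0.105, 0.255 and 0.465 and were not called (limma adjusted p = 0.906, 0.769 and 0.284 over probe sets). The size of its rise is therefore uncertain. Rab2a, a GTPase of transport between endoplasmic reticulum and Golgi, rose by 1.19 ± 0.19 (limma adjusted p = 0.0248). Trp53inp2, which takes part in autophagy, rose by 1.19 ± 0.18 (limma adjusted p = 0.0237). Ppp3ca, the catalytic subunit of the phosphatase calcineurin, read 5.41, 5.37 and 5.24 in WT and 6.21, 6.25 and 6.05 in KO (0.83 ± 0.14, limma adjusted p = 0.0266). Ctnnb1, beta-catenin, the effector of canonical Wnt signalling, had the smallest called difference, with 7.87, 7.70 and 7.79 in WT and 8.35, 8.38 and 8.33 in KO (0.57 ± 0.09, limma adjusted p = 0.0245). The remaining 5 called rises were Bpnt2, a phosphatase of the Golgi, Svbp, the partner of the vasohibins, Rcn1, a calcium-binding protein of the endoplasmic reticulum, Eya1, a transcriptional coactivator, and Suco, and they lay between 0.65 and 0.88. Of these, Suco read 6.66, 6.63 and 6.74 in WT and 7.39, 7.36 and 7.24 in KO, and Bpnt2 read 5.27, 4.92 and 4.74 in WT and 5.80, 5.87 and 5.88 in KO.

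KO replicate 3 was the lowest KO array for 19 of the 35 rises, and replicates 1 and 2 were the lowest for 8 each. Since no called gene had overlapping groups, KO replicate 3 necessarily kept the direction of all 43 against the WT mean.

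Jchain fell furthest. It encodes the chain that joins IgM and IgA subunits and is made by plasma cells, and it lies at chr5:88519809-88527897 of GRCm38.p6. It read 8.38, 7.70 and 7.31 in WT and 4.29, 2.68 and 4.33 in KO. Every KO array was at least 2.98 below every WT array, and the difference was -4.03 ± 0.42 (limma adjusted p = 0.0023), 16.3-fold. Jchain was the 1 called member of 15 immunoglobulin and plasma cell genes, whose median was -0.13. Light chain genes lay lower in KO with no call: Iglv1 read 7.30, 6.78 and 6.69 in WT and 5.47, 4.65 and 5.19 in KO (-1.82 ± 0.41, limma adjusted p = 0.119), and Igk-V21 differed by -1.47 ± 0.40 (limma adjusted p = 0.224). Transcription factors of plasma cells did not pass the test. Prdm1 read 5.32, 4.94 and 5.37 in WT and 4.61, 5.01 and 4.97 in KO (-0.34 ± 0.14, limma adjusted p = 0.485), and Xbp1 differed by -0.07 ± 0.14. Both are also expressed in DCs.

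Mmp12, macrophage elastase, read 4.36, 3.54 and 4.31 in WT and 1.81, 1.98 and 1.71 in KO. The difference was -2.23 ± 0.24 (limma adjusted p = 0.0023), and the KO values lay below the median of all genes. Mmp12 was the 1 called member of 19 red pulp macrophage genes, whose median was 0.07. Spic, the transcription factor of red pulp macrophages, read 7.62, 7.15 and 6.73 in WT and 5.97, 6.29 and 6.44 in KO (-0.93 ± 0.27, limma adjusted p = 0.261). Cd5l, a secreted protein of these cells, differed the other way, by 0.79 ± 0.40 (limma adjusted p = 0.628). The list's median distance from the WT mean ran from -0.46 to 0.46 in WT and from -0.06 to 0.24 in KO.

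Chemokines fell in 2 cases. Cxcl10, the interferon-induced ligand of Cxcr3 that draws in T and NK cells, read 6.64, 6.20 and 7.06 in WT and 5.23, 4.55 and 4.16 in KO. It fell by 1.99 ± 0.28 on the log2 scale (limma adjusted p = 0.0173), 3.97-fold. Ccl4, an inflammatory chemokine, read 8.46, 7.78 and 8.67 in WT and 7.07, 6.29 and 6.40 in KO (-1.72 ± 0.27, limma adjusted p = 0.0248). Each was the 1 called member of its list, of 13 CC chemokines with a median of -0.35 and 12 CXC chemokines with a median of -0.08. Cxcl1 read 5.25, 4.30 and 4.34 in WT and 3.24, 3.21 and 2.83 in KO (-1.53 ± 0.29, limma adjusted p = 0.0615). Ccl22 read 5.88, 5.61 and 6.50 in WT and 4.54, 4.23 and 5.31 in KO (-1.30 ± 0.33, limma adjusted p = 0.17). Ccl5 read 8.61, 8.51 and 8.85 in WT and 8.72, 8.97 and 9.02 in KO, with overlap. The platelet chemokine Pf4 and the neutrophil and macrophage chemokine Ccl6 had higher values in KO, by 1.85 ± 0.60 (limma adjusted p = 0.333) and 1.27 ± 0.42 (limma adjusted p = 0.34).
The inflammatory lists beside them gave no call. Of 25 interferon response genes 0 were called, with 2 higher and 3 lower at an unadjusted limma p under 0.05, and their median was -0.04. Ifih1, the sensor MDA5, read 6.06, 5.47 and 6.83 in WT and 4.68, 4.59 and 4.41 in KO (-1.56 ± 0.29, limma adjusted p = 0.0512), just outside the threshold, whereas Oasl2 differed by 1.07 ± 0.39. Of 21 cytokine genes 0 were called, with 0 higher and 4 lower at an unadjusted limma p under 0.05. Il1a read 5.73, 5.40 and 5.67 in WT and 3.99, 4.62 and 4.26 in KO (-1.31 ± 0.27, limma adjusted p = 0.0869), while Il6 (0.12 ± 0.31) and Il12b (-0.13 ± 0.16) differed by less than their error. Among 17 DC maturation genes 0 were called and the median was -0.21, and Cd86 read 7.995, 7.75 and 7.99 in WT and 7.43, 7.20 and 7.71 in KO (-0.47 ± 0.19, limma adjusted p = 0.494).

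The other 4 falls were Stat4, Trim35, Rrad and Nup54. Stat4, which carries interleukin-12 signals, read 5.80, 5.28 and 5.26 in WT and 4.35, 3.96 and 4.01 in KO (-1.34 ± 0.21, limma adjusted p = 0.0237). It was the 1 called member of 18 STAT and SOCS genes, with a list median of -0.10. Trim35, a ubiquitin ligase, read 5.85, 5.93 and 5.95 in WT and 4.95, 5.09 and 5.07 in KO (-0.88 ± 0.13, limma adjusted p = 0.0195), and the other 17 of the 18 TRIM genes were not called. Rrad, a small GTPase that inhibits calcium channels, read 4.44, 4.41 and 4.56 in WT and 3.25, 3.26 and 3.84 in KO (-1.02 ± 0.14, limma adjusted p = 0.0179). It was the 1 called member of 23 immediate early and stress genes, whose median was -0.02, with 8 lower and 2 higher at an unadjusted limma p under 0.05. Without KO LPS replicate 2, 4 of the 23 were called lower, beside 45 lower of all 17097 genes. Nr4a2 read 7.25, 6.87 and 6.87 in WT and 6.33, 6.46 and 6.38 in KO (-0.61 ± 0.13, limma adjusted p = 0.106). Nup54, a component of the central channel of the nuclear pore, read 4.11, 4.04 and 4.28 in WT and 3.52, 3.40 and 3.60 in KO (-0.63 ± 0.11, limma adjusted p = 0.0463), alone among 24 nucleoporins.

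None of 24 proposed targets of miR-142, collected from general knowledge, was called, where 0.252% of all genes were. The median difference of the 24 was 0.21 against -0.001 for all genes. At an unadjusted limma p under 0.05, 5 of 24 were higher and 0 lower, beside 870 higher and 623 lower of all 17097 genes. The median distance from the WT mean was 0.27, 0.29 and 0.10 in KO replicates 1, 2 and 3 and -0.02, -0.05 and -0.004 in WT. Tgfbr1, the type I receptor of TGF-beta, read 6.51, 6.55 and 6.62 in WT and 7.08, 7.54 and 7.36 in KO (0.77 ± 0.17, limma adjusted p = 0.111). All 3 probe sets of Tgfbr1 lay higher in KO, by 0.55 to 0.90. Wasl, which encodes the actin nucleation factor N-WASP, read 4.95, 5.12 and 4.81 in WT and 5.74, 5.84 and 5.80 in KO (0.83 ± 0.27, limma adjusted p = 0.336). Cask, a membrane scaffold kinase, read 2.78, 2.84 and 3.65 in WT and 3.85, 4.30 and 4.03 in KO (0.97 ± 0.32, limma adjusted p = 0.339). The cell cycle repressors E2f7 and E2f8 differed by 0.14 ± 0.13 and 0.23 ± 0.44. Without KO LPS replicate 2, 3 of the 24 were called higher, Cask, Wasl and Tgfbr1, beside 121 higher of all 17097 genes.

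Genes near the miR-142 locus were examined because a deletion can touch its surroundings. Within 250 kb, 11 measured genes were found and 0 were called. Over all genes 0.252% were called, so 0 of 11 is near that share. An effect of the deletion on its surroundings was not tested. Rnf43, a ubiquitin ligase 21.3 kb away, read 1.57, 1.504 and 1.58 in WT and 1.10, 1.29 and 1.14 in KO (-0.37 ± 0.10, limma adjusted p = 0.236). These values lie well under the median of 3.14 over all genes. Mpo, myeloperoxidase of primary granules, lies 36.9 kb away and read 2.92, 2.25 and 2.48 in WT and 4.58, 5.71 and 3.28 in KO (1.97 ± 0.52, limma adjusted p = 0.196). Mpo followed the order of the granule genes, with KO replicate 3 the lowest of KO. Lpo, the next peroxidase gene at 49.5 kb, differed by 0.04 ± 0.15.

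The same genotype comparison in LPS-treated cells gave the same direction for all 43 genes. Those arrays share no array with the unstimulated ones, but the labels do not say whether cells of 1 mouse were split between them. Same-numbered unstimulated and LPS arrays deviated together from their group means, with correlations of 0.39, 0.23 and 0.42 in WT and of 0.30, 0.28 and 0.44 in KO, so they may not be independent. After LPS 76 of 17097 genes were called (0.445%), and 27 genes were called in both, which is 62.8% of the unstimulated calls and 35.5% of the LPS calls. The difference was smaller in size after LPS for 36 of the 43, and for 35 without KO LPS replicate 2, where all 43 also kept their direction. The 43 were chosen by their unstimulated difference, so a smaller size in other arrays can follow from that choice alone. Jchain differed by -3.05 ± 0.42 (limma adjusted p = 0.017), Klra8 by 3.82 ± 0.36 (limma adjusted p = 0.00137) and Lcn2 by 4.67 ± 0.83 (limma adjusted p = 0.0322). Cxcl10 differed by -1.16 ± 0.28 (limma adjusted p = 0.102) and Ccl4 by -0.99 ± 0.27 (limma adjusted p = 0.161). Without KO LPS replicate 2 the differences after LPS were -3.17 for Jchain, 3.68 for Klra8, 4.50 for Lcn2, -0.93 for Cxcl10 and -0.71 for Ccl4. The test of the change in difference called 0 of 17097 genes in limma, with 639 at an unadjusted p under 0.05. Pltp and Nup54 were the called genes among those 639. The secondary and tertiary granule list stood at 3.91, 3.94 and 0.88 in KO LPS replicates 1, 2 and 3, so replicate 3 was again the lowest.

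**Figure D4:**
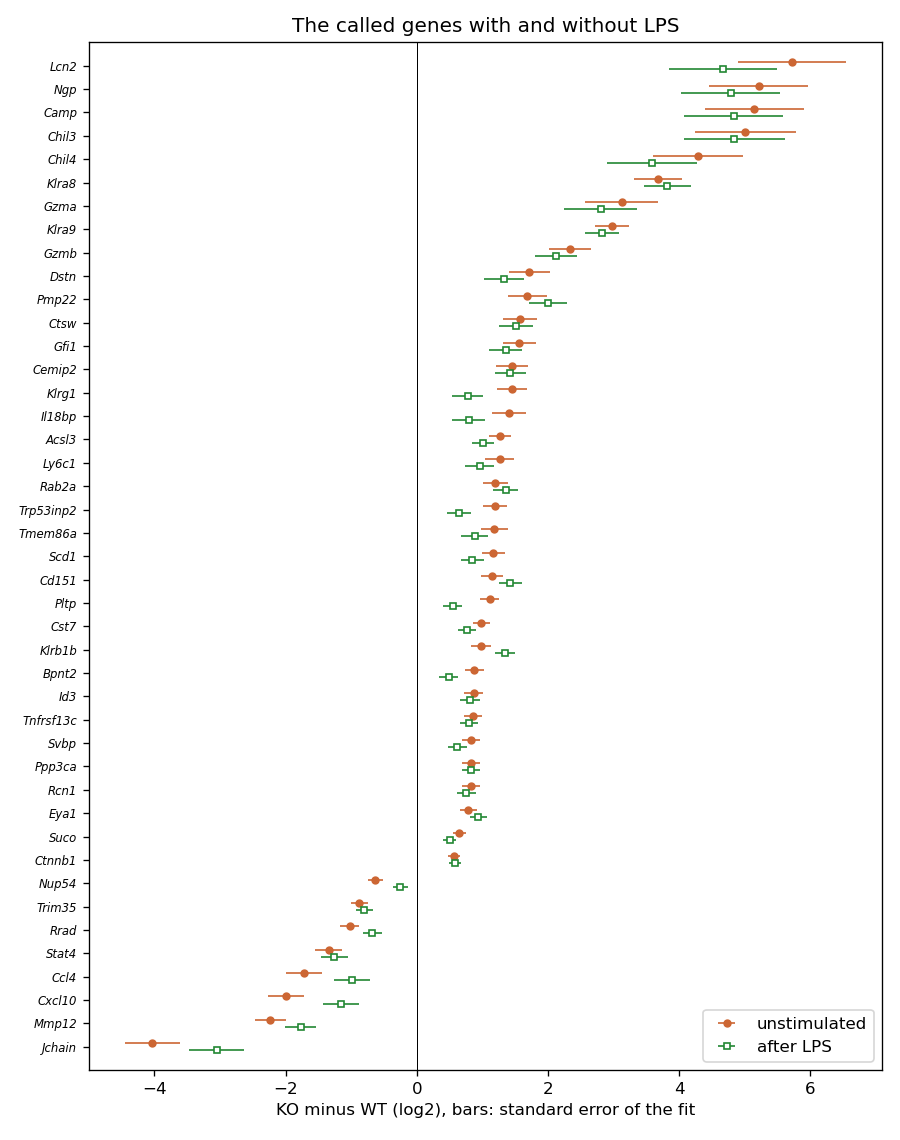
KO minus WT differences (log2) with standard errors are drawn for the 43 called genes, in unstimulated cells (filled orange circles) and after LPS (open green squares). All 43 pairs lie on the same side of 0, from 5.72 and 4.67 for Lcn2 to -4.03 and -3.05 for Jchain.

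Without KO LPS replicate 2, 123 genes were called in addition to the 43, all of which were kept. Of the 166 calls, 121 were higher and 45 lower. The largest additions upward were Stfa2l1 (4.36), Wfdc21 (3.87) and Ltf (3.73), all neutrophil genes, followed by Pglyrp1 (2.46), a bactericidal granule protein, Arap3 (1.99) and Nkg7 (1.98). Pglyrp1 read 5.39, 5.39 and 5.09 in WT and 8.24, 8.57 and 6.46 in KO. Phlda1 read 3.06, 3.51 and 3.50 in WT and 4.89, 6.15 and 4.499 in KO, and F2r, a thrombin receptor, read 2.62, 3.09 and 3.31 in WT and 4.22, 4.74 and 4.99 in KO. Downward the largest were Iglv1, Ifih1 and Cxcl1, followed by Igk-V21, Ncoa7 (-1.42) and the heat shock gene Hspa1b (-1.41). Hspa1b read 6.01, 6.21 and 6.40 in WT and 4.86, 4.53 and 5.003 in KO. Cd209d, a lectin of the DC-SIGN family, read 3.75, 4.33 and 4.42 in WT and 3.27, 3.49 and 3.20 in KO.

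Most called genes rest on 1 probe set, and 13 have several. For all 13, every probe set lay on the same side, and for 2 of them, Klrb1b and Rab2a, a second probe set was called. The same side does not mean the same size, and for Acsl3, Cd151 and Chil4 the other sets lay much nearer to no difference. Rab2a has 6 probe sets, of which 3 were called, with differences from 0.29 to 1.23. Of the called genes, 31 were measured by a probe set specific to 1 transcript by its name, 6 by a set shared between variants of a gene, and 6 by sets that may match other genes.

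**Figure D5:**
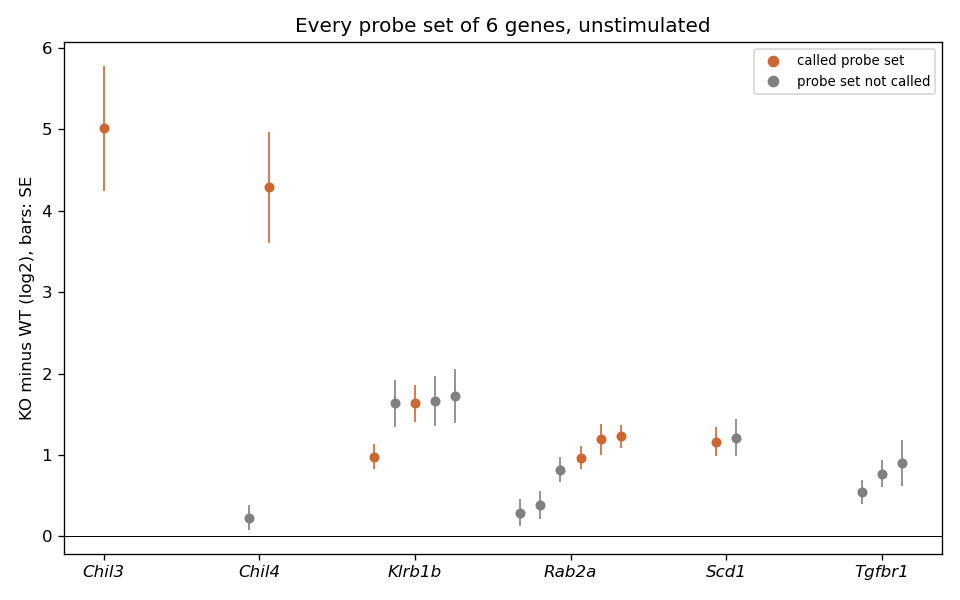
Every probe set of 6 genes is drawn with its KO minus WT difference (log2) and standard error, orange where it was called over all probe sets with 1 symbol. The Chil4 sets differ most, at 0.23 and 4.29, while the 5 sets of Klrb1b lie between 0.98 and 1.73 and the 3 of Tgfbr1 between 0.55 and 0.90.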

How the data were processed

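DCs were isolated from individual spleens, and RNA was amplified with WT-Ovation Pico, per the labels' protocols. The authors used RMA, per the submitters' processing notes, and deposited 1 log2 value per probe set and array. The version of RMA is not stated. Of 45141 probe sets, 28898 had 1 gene symbol. Control sets (104), sets with several symbols (551) and sets with none (15588) were left out of the gene test. Each gene was represented by its set of highest 12-array mean, which gave 17097 genes, 7180 of them with several sets. No dim genes were removed. RMA values compress differences of dim genes, and with 3 arrays a group their number limits the precision.

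All 12 arrays entered 1 limma 3.58.1 model (R 4.3.3) with 4 group means, lmFit and eBayes, and calls used a Benjamini-Hochberg adjusted p under 0.05. Errors after ± are the SE of the log2 difference, computed from the fit. These errors and the adjusted p-values count same-numbered unstimulated and LPS arrays as independent, which the labels do not settle. With replicates as random blocks within genotype the count was 52, and all 43 were kept. An exact permutation test of 3 against 3 arrays cannot go below p = 0.1 and was not used. The steps were tested on simulated data with independent arrays. There, log2 shifts of 0.5, 1 and 2 were called for 24%, 94% and 100% of the shifted genes, and a shift of -1 for 86%. A list with 0 calls therefore says little about differences near 0.5. Replicate numbers appear in every group. Deviations of same-numbered KO and WT unstimulated arrays correlated at -0.01, 0.09 and 0.22, so the numbers were not taken as pairs. Named genes were all called genes, members of 49 lists, and up to 12 genes each way called only without KO LPS replicate 2. Genes and lists were chosen with earlier results of these data known. Alternatives covered leaving out each array, the arrays in the fit, blocks, array weights, the prior, quantile normalisation, probe set means, a filter on dim genes and a threshold of 0.10. Promoter and miRNA sequences are from RefSeq (GRCm38.p6). Of the probe sets with 1 symbol, 28689 matched a RefSeq gene.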

Additional observations from a re-analysis of the deposited data

Results flagged for a closer look

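Outside the gene test, 16139 probe sets without a single gene symbol were fitted in the same limma model. Of these, 13 passed an adjusted p under 0.05, a signal in data that the comparison above does not use. In KO, 4 were higher, by 0.91 to 1.72 on the log2 scale, and 9 were lower, by -3.11 to -0.84. Their genes are not named here.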

How the results depend on the processing

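The 43 calls in unstimulated cells became 84 with the 6 unstimulated arrays only, 170 with the replicate block over all arrays, 148 with array weights and 79 at an adjusted p under 0.10. Leaving out 1 array gave 5 to 166. The other alternatives gave counts within 1.5 times the main one. After LPS the 76 calls became 280 with the replicate block and 190 at an adjusted p under 0.10, and leaving out 1 array gave 2 to 358. The change in difference called 0 genes in every setting. No called gene reversed in the 20 alternative fits. Only quantile normalisation and probe set means could have reversed one, since the groups of all 43 do not overlap. Jchain, Klra8, Klra9 and Mmp12 were called in all 20. All 43 were kept with the replicate block, array weights or the filter on dim genes, 41 with the 6 arrays only, and 5 without WT replicate 3. The cause was not tested. Planned counts by seed match were not run, because no transcript sequences were used here. For 9 called genes a group mean lies under the median of all genes, which limits how far their size can be read.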
